A study of Mus musculus with 12 samples.

Results

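The choroid plexus is the epithelial fold inside the brain ventricles that makes the cerebrospinal fluid. Its cells pump ions and water into the ventricle, carry folate and thyroid hormone across, and secrete proteins into the fluid. Transcripts of this epithelium can enter a dissected brain region when a strip of ventricle wall or plexus comes with it, and in bulk tissue fewer cells of a type and less RNA per cell cannot be told apart. Some of the genes are also transcribed at a lower level by other cells, Kl by neurons among them.

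Levels of 10 genes used as a readout of ventricular tissue in amygdala dissections are described here: Ttr, Kl, Sostdc1, F5, Folr1, Slc4a5, Clic6, Aqp1, Steap1 and Otx2. They were chosen by symbol, and all 10 were found among the 47729 genes of the deposited counts. The study sequenced mRNA from both amygdalae of 12 female C57/BL6 mice, with 1 library per mouse and no drug or genetic manipulation. Before that, each mouse went through the elevated plus maze at 9 weeks of age, the light/dark box at 10 weeks and the 3-chamber social interaction test at 11 weeks. The meninges were stripped and the amygdala was cut from vibratome slices under a dissection microscope. The authors sorted 11 mice into less anxious (mice 3, 7 and 12), anxious (mice 1, 4, 8 and 11) and more anxious (mice 2, 6, 9 and 10) by the second principal component (PC2) of these same libraries, so the group comparison does not stand apart from the RNA it tests. All groups are untreated mice of 1 strain and sex. Mouse 5 has no group, because the authors judged it an outlier by principal component analysis and left it out. It is kept here in the levels, spreads and correlations over 12 mice. Libraries held between 31745630 and 45142355 estimated reads, and levels are given as CPM, the count scaled to that total. A count of 0 allows up to 3 reads, which is 0.0665 to 0.0945 CPM depending on the library, and covers counting error only.

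The libraries had the profile of neural tissue. The synaptic gene Snap25 stood at 1901 ± 222 CPM and the glutamate transporter gene Slc17a7 at 972 ± 193 CPM (SD, n = 12). Prl and Gh, hormone genes of the anterior pituitary, reached 32.1 and 20.03 CPM in 1 library, mouse 4 of the anxious group, and were at 0 in 2 libraries and 1 library. Mouse 5 had a read in 23768 genes, against 26378 to 28196 in the other 11 mice.

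All 10 choroid plexus genes were sparse. The highest single value of any of them was 9.07 CPM (Clic6 in mouse 12), and the 10 genes together made up 13.3 CPM in mouse 10 to 25.0 CPM in mouse 12, a 1.89-fold range. Over the 12 libraries Kl collected 2393 reads, Clic6 2200, Sostdc1 1383 and Ttr 1110. F5 (384 reads) and Aqp1 (255 reads) were thinner, and Folr1, Steap1, Slc4a5 and Otx2 collected 114, 84, 60 and 56 reads in all. For those last 4 genes a mouse could differ from another by a handful of reads.

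Levels can be set against each other only per length, and so the mean CPM was divided by the kilobases (kb) covered by the exons of each gene. On that scale Ttr came first with 2.13 ± 1.36 CPM per kb (SD, n = 12), followed by Sostdc1 with 1.72 ± 0.288, Clic6 with 1.25 ± 0.453 and Kl with 0.573 ± 0.148. Aqp1 followed with 0.219 ± 0.0933, then Steap1 with 0.138 ± 0.0838, F5 with 0.116 ± 0.0430 and Folr1 with 0.107 ± 0.0883. Otx2 with 0.0296 ± 0.0284 and Slc4a5 with 0.0220 ± 0.0179 CPM per kb stood last. In this order 3 steps were larger than the spread between mice, namely from Sostdc1 to Clic6 (higher in 9 of 12 mice), from Clic6 to Kl (11 of 12) and from Kl to Aqp1 (12 of 12). The order of Ttr and Sostdc1, and that of the 6 lowest genes among neighbors, lay within the spread. The divisor joins the exons of all transcripts, 9328 bp for Kl, whose longest transcript has 5828 bp, and 3914 against 3758 bp for Clic6. By the longest transcript Kl and Clic6 would stand higher. The steps from Sostdc1 to Clic6 and from Clic6 to Kl are therefore stated for this divisor only.

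The median over the 10 genes was 0.179 CPM per kb. Among 32 further genes known from choroid plexus epithelium the median was 0.968, and it was 0.911 for 14 genes of the ciliated ependyma that lines the ventricles. Genes of meninges and stroma had a median of 2.97, endothelial genes 4.18 and amygdala and neuron genes 22.7 CPM per kb. The medians of 7 anterior pituitary genes (0.253) and 5 hypothalamic genes (0.393) were nearer to that of the choroid plexus genes. Ttr, the gene that choroid plexus epithelium transcribes most strongly, averaged 2.13 CPM per kb in libraries in which the neuron genes had a median of 22.7.

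**Figure D1:**
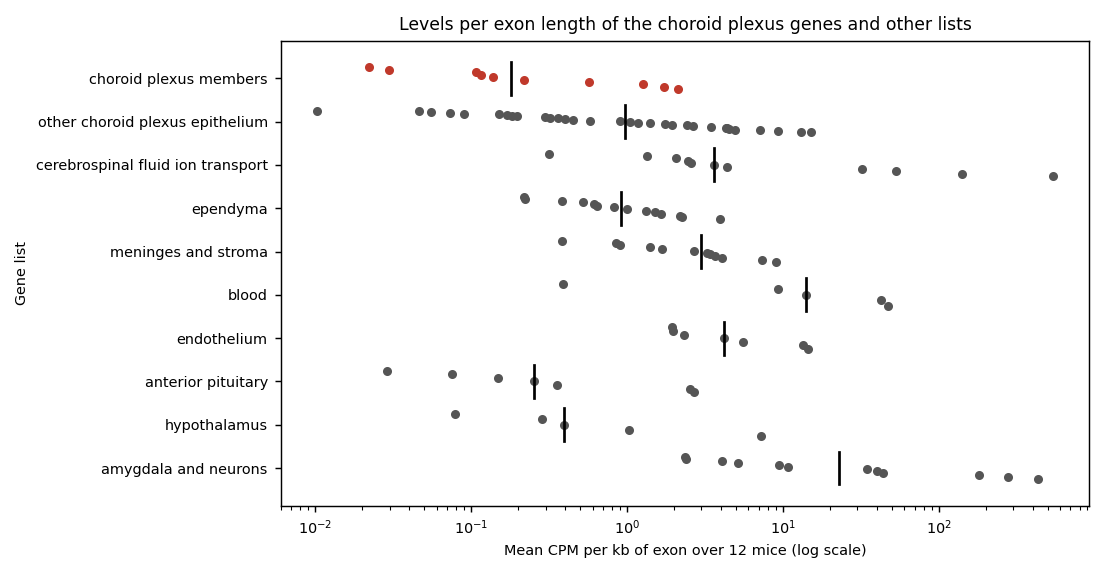
Mean level per kb of exon over 12 mice (log axis) for each gene of 10 lists, one point per gene, with a vertical bar at the median of the list. The 10 choroid plexus genes (red) run from 0.0220 to 2.13 CPM per kb, and the median of 22.7 for amygdala and neuron genes lies above all of them.

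Ttr encodes transthyretin, the thyroid hormone and retinol carrier that the plexus secretes into cerebrospinal fluid. It lies at chr18:20665280-20674321 on the plus strand (GRCm38), with 1186 bp of exon. Ttr measured 1.38, 5.53 and 1.05 CPM in less anxious mice 3, 7 and 12. In anxious mice 1, 4, 8 and 11 it measured 3.06, 2.50, 2.14 and 4.98 CPM. In more anxious mice 2, 6, 9 and 10 it measured 1.28, 4.45, 1.48 and 1.26 CPM, and mouse 5 had 1.22 CPM. In every group 1 mouse (7, 11 and 6) stood above the rest, and the groups overlapped. The highest mouse exceeded the lowest 5.26-fold, and the coefficient of variation over 12 mice was 63.8%, where counting error alone would give 10.4%.

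Kl encodes klotho, a membrane and secreted co-receptor for fibroblast growth factor 23. The gene lies at chr5:150952607-150993817 (plus strand). Kl was the most even across anxious mice, with 4.70, 4.55, 5.00 and 4.82 CPM in mice 1, 4, 8 and 11. Less anxious mice 3, 7 and 12 had 4.81, 5.96 and 9.04 CPM. More anxious mice 2, 6, 9 and 10 had 5.78, 6.07, 3.76 and 5.63 CPM, and mouse 5 had 4.01 CPM. Mouse 12 was high, and the other 11 values ran from 3.76 to 6.07 CPM.

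Sostdc1 encodes a secreted antagonist of bone morphogenetic protein and Wnt signals (chr12:36314139-36318452, plus strand). It varied least of the 10 genes. Less anxious mice 3, 7 and 12 had 3.46, 2.69 and 3.72 CPM, and anxious mice 1, 4, 8 and 11 had 3.09, 2.79, 2.88 and 3.21 CPM. More anxious mice 2, 6, 9 and 10 had 3.50, 2.10, 3.69 and 3.23 CPM, and mouse 5 had 2.36 CPM. The coefficient of variation was 16.8%, against 9.31% from counting, and the 3 groups overlapped.

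F5 encodes coagulation factor V (chr1:164151838-164220277, plus strand). Less anxious mice 3, 7 and 12 had 1.27, 1.15 and 0.918 CPM. Anxious mice 1, 4, 8 and 11 had 0.5003, 1.02, 0.686 and 0.882 CPM, and more anxious mice 2, 6, 9 and 10 had 1.02, 0.571, 0.447 and 0.492 CPM. Of the 4 more anxious mice 3 were below all less anxious mice, and mouse 2 lay among them. Mouse 5, with no group, had the highest value, 1.38 CPM.

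The transporters and channels came next. Clic6 encodes a chloride intracellular channel protein (chr16:92485736-92541243, plus strand). Clic6 measured 5.61, 5.93 and 9.07 CPM in less anxious mice 3, 7 and 12, and 5.59, 4.15, 4.01 and 3.59 CPM in anxious mice 1, 4, 8 and 11. It measured 5.18, 6.13, 3.44 and 2.11 CPM in more anxious mice 2, 6, 9 and 10, and 4.13 CPM in mouse 5. Mouse 12 was high here as for Kl, mouse 10 was lowest, and more anxious mouse 6 lay within the less anxious range.

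Aqp1 encodes the water channel of the apical plexus membrane (chr6:55336432-55348555, plus strand). Aqp1 stood at 0.332, 0.324 and 0.837 CPM in less anxious mice 3, 7 and 12. It stood at 0.556, 0.841, 0.439 and 0.788 CPM in anxious mice 1, 4, 8 and 11, and at 0.598, 0.361, 0.470 and 0.328 CPM in more anxious mice 2, 6, 9 and 10. The groups overlapped, and mouse 5 was highest with 1.04 CPM (34 reads).

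Folr1 encodes folate receptor alpha, which carries folate into cerebrospinal fluid (chr7:101858331-101870788, minus strand). Its reads numbered 20, 4 and 3 in less anxious mice 3, 7 and 12, 9, 5, 8 and 12 in anxious mice 1, 4, 8 and 11, and 29, 4, 17 and 3 in more anxious mice 2, 6, 9 and 10. Mice 3, 2, 9 and 11 were highest, at 0.553, 0.642, 0.380 and 0.378 CPM, and came from all groups. Mouse 5 had 0 reads, so that mouse 2 was at least 6.999-fold higher than mouse 5 by the limit of 3 reads.

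Slc4a5 encodes a sodium bicarbonate cotransporter of the apical membrane (chr6:83219828-83304945, plus strand). Its reads numbered 5, 10 and 5 in less anxious mice 3, 7 and 12, 1, 1, 5 and 3 in anxious mice 1, 4, 8 and 11, and 5, 5, 17 and 3 in more anxious mice 2, 6, 9 and 10. Mouse 9 was high at 0.380 CPM, and mouse 5 had 0 reads. The coefficient of variation of 81.6% compares with 44.7% from counting alone.

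Steap1, a six-transmembrane protein of the metalloreductase family, lies at chr5:5736317-5749326 on the minus strand. Its reads numbered 12, 14 and 1 in less anxious mice 3, 7 and 12, 9, 3, 5 and 6 in anxious mice 1, 4, 8 and 11, and 5, 11, 9 and 1 in more anxious mice 2, 6, 9 and 10. Mouse 5 had 8 reads. The 3 groups overlapped, and both outer groups held a mouse with 1 read.

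Otx2, the homeobox transcription factor that specifies and maintains the plexus epithelium, lies at chr14:48657677-48673819 on the minus strand. Its reads numbered 9, 1 and 6 in less anxious mice 3, 7 and 12, 5, 15, 0 and 7 in anxious mice 1, 4, 8 and 11, and 7, 2, 3 and 1 in more anxious mice 2, 6, 9 and 10. Mouse 4 was highest with 0.394 CPM, and mice 8 and 5 had 0 reads. Otx2 had the widest spread of the 10 genes, a coefficient of variation of 95.9% where counting gave 46.3%.

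**Figure D2:**
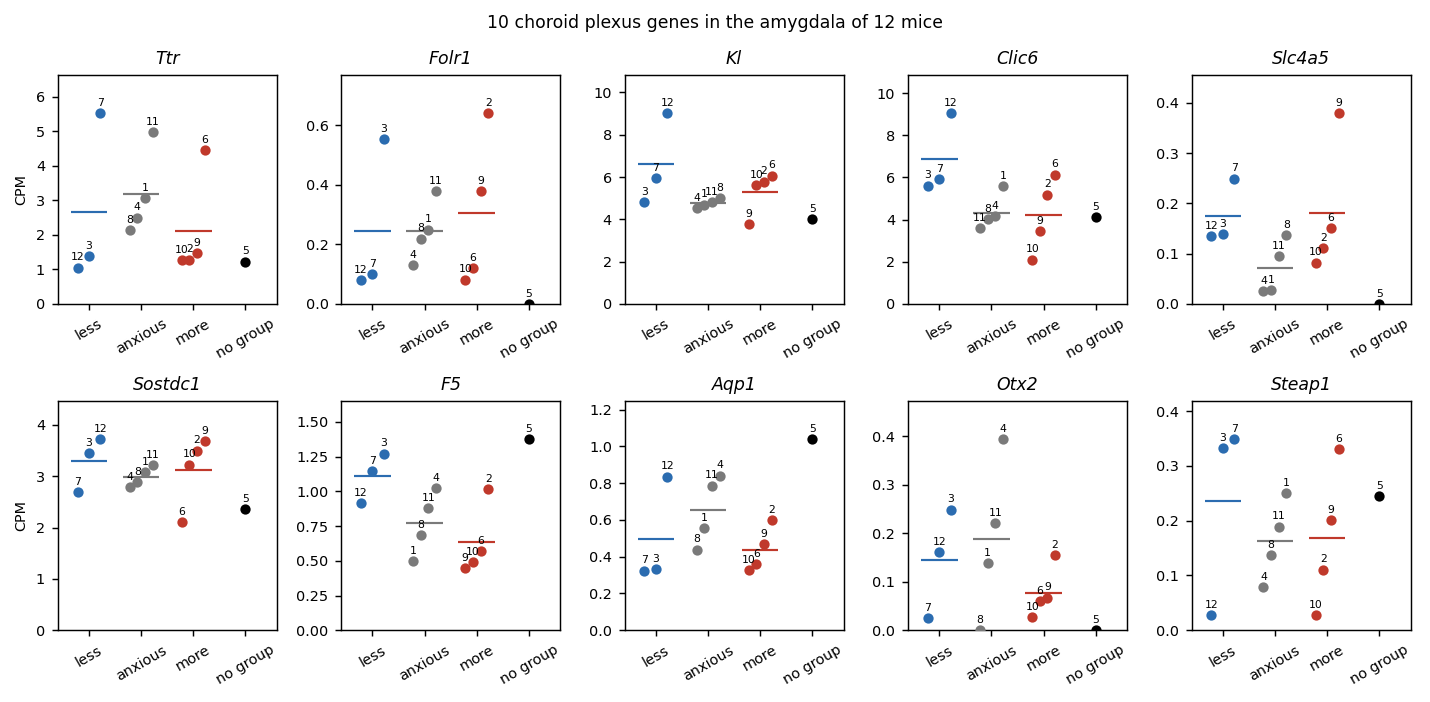
CPM of each of the 10 genes (one panel each, linear axis from 0) in every mouse, numbered and colored by group, with a line at the mean of each group. Ttr is high in mice 7, 11 and 6, one from each group, and Kl and Clic6 are highest in less anxious mouse 12.

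OTX2 binds DNA at sites of the letters TAATCC (reverse complement GGATTA), so start-site windows of 300 bp (from RefSeq, GRCm38.p6) were searched on both strands as a feature that the choice of genes did not use. The table held 9 windows of 6 of the genes: F5, Steap1, Kl, Aqp1, Slc4a5 and Otx2. Of the 9 windows 1 held the letters, and so did 2320 of all 32851 windows (7.06%). That window belongs to Otx2 itself. The part with the match is shown because it is the only one among these genes, read on the minus strand from chr14:48665275-48665359, with the 6 motif letters in capitals, the first of them 211 bases before the start.

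Otx2 window: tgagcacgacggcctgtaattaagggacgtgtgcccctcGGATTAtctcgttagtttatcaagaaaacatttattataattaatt

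A match of this kind is a description of letters and not of a bound site. Windows of Ttr, Folr1, Clic6 and Sostdc1 were not analysed here.

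How far the 10 genes varied together from mouse to mouse was described by Pearson's r of log2 CPM over the 12 mice, with the total of each library as the common scale. The 45 pairs of choroid plexus genes had a median r of 0.0924, from -0.603 for Slc4a5 and Aqp1 to 0.579 for Folr1 and Sostdc1. In 4 pairs r was over 0.5: Folr1 with Sostdc1, Kl with Clic6 (0.571), Ttr with Steap1 (0.535) and Folr1 with Otx2 (0.514). In 17 pairs it was below 0. Ttr had r = -0.493 with Sostdc1, the other strongest gene per length. With the 4 genes of at least 1 CPM alone (Ttr, Kl, Clic6 and Sostdc1), which have the most reads, the median of the 6 pairs was 0.0344.

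Other lists are set beside this as a description. The 66 pairs of 12 meninges and stroma genes had a median r of 0.741, with 53 pairs over 0.5, and their summed level ranged 5.07-fold over the mice. Blood genes had a median r of 0.728 over 10 pairs and endothelial genes 0.590 over 21 pairs. Ependymal genes had 0.282 over 91 pairs, and the 32 further choroid plexus genes had 0.0738 over 496 pairs. The summed ependymal level was highest in mouse 3, at 56.0 CPM, against 31.6 to 47.0 CPM in the other mice. The 10 choroid plexus genes together were 18.1 CPM in mouse 3, within the range of 13.3 to 25.0 CPM over the mice. Single genes went either way in mouse 3, with Ttr at 1.38 CPM (median over the mice 1.81) and Folr1 at 0.553 CPM (median 0.175).

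**Figure D3:**
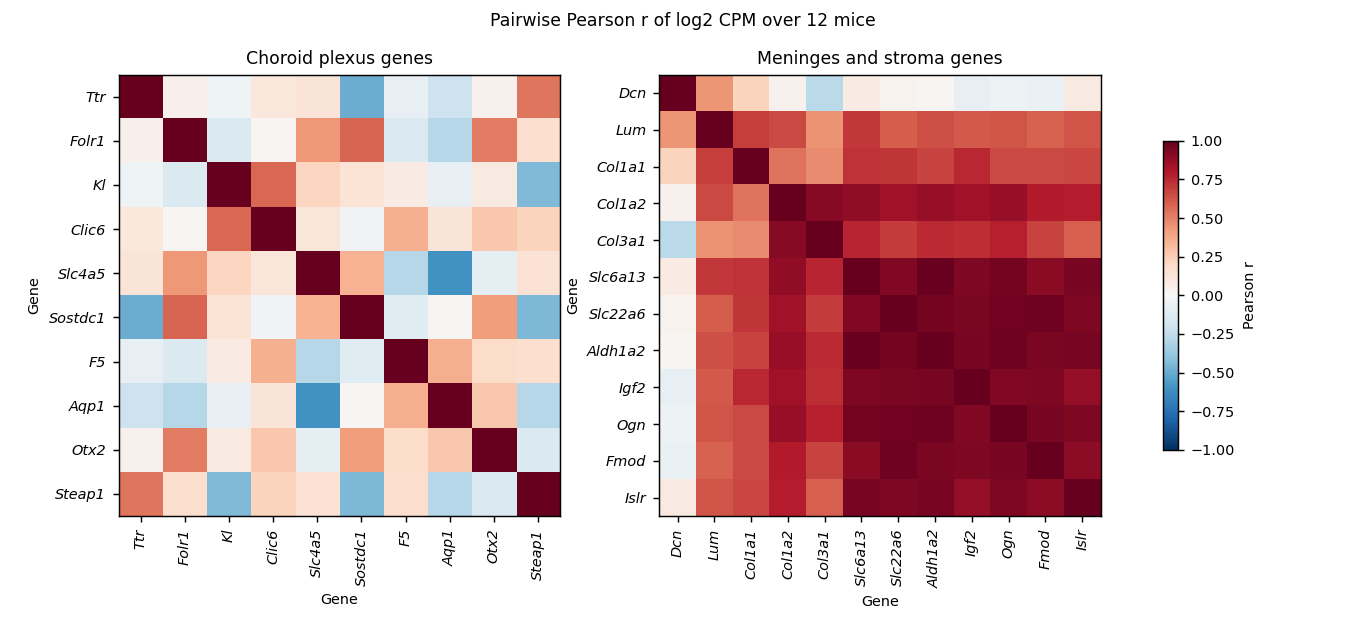
Pearson's r of log2 CPM over 12 mice for each pair of the 10 choroid plexus genes (left) and of the 12 meninges and stroma genes (right), on 1 color scale from -1 to 1. The left panel is pale and mixed in sign, with a median r of 0.0924, and the right panel is mostly red, with a median of 0.741.

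Among 15888 other genes of at least 1 CPM, those most like the 10 by the median of r over all of them were Fosl1 (0.452), Gm29480 (0.440), Slc9b2 (0.433), Arg2 (0.430) and Ugt1a6a (0.428). Nemp2 (0.428), Fam71e1 (0.427), Plxnb1 (0.423), Gm6483 (0.411) and Ucp3 (0.411) followed. Fosl1 exceeded r = 0.5 with 4 of the 10 genes, and no gene had a median over 0.452. None of the further choroid plexus genes was among these 10.

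The group comparison asked whether a gene's level differed among the 3 anxiety states with the first principal component (PC1) as a covariate. PC1 was computed here from these libraries, and the groups are those of the authors. In the same computation PC2 was 0.28 in more anxious mouse 6, above anxious mice 1 (-4.40) and 11 (-2.88). More anxious mice 2, 9 and 10 had -15.2, -25.2 and -12.8, below all anxious mice. None of the 10 genes passed. At an adjusted p under 0.05, edgeR's quasi-likelihood test called 0 of 10 across the 3 groups, beside 0.00742% of all genes (2 of 26963). At an unadjusted p under 0.05 it had 0 of 10, beside 6.35% of all genes. DESeq2's likelihood ratio test called none of them either, beside 0.533% of all genes. It gave no adjusted p for Folr1, Slc4a5, Otx2 and Steap1, so these could not be called. At an unadjusted p under 0.05 it had 1 of 10, Clic6 (adjusted p = 0.467), beside 4.95%.

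Between more and less anxious mice the 2 largest falls in fitted level were those of F5 and Clic6, and neither passed adjustment. Clic6 averaged 6.87 ± 1.91 CPM in less anxious (SD, n = 3) and 4.22 ± 1.79 CPM in more anxious mice (SD, n = 4). Its log2 fold change, more minus less anxious, was -0.77 with a 95% interval of -1.46 to -0.08 (edgeR, adjusted p = 0.504). F5 averaged 1.11 ± 0.180 and 0.632 ± 0.263 CPM, a log2 fold change of -0.81 with an interval of -1.55 to -0.08 (edgeR, adjusted p = 0.513). These were the only 2 of 10 at an unadjusted p under 0.05, both lower, beside 8.84% of all genes in either direction. At an adjusted p, edgeR called 0 of 10 beside 0.0445% of all genes, and DESeq2's Wald test 0 of 10 beside 0.878%, with 2 of 10 at an unadjusted p beside 6.55%. DESeq2 gave no adjusted p for the 4 thinnest genes, nor for F5 and Aqp1 in this pair of groups.

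Endothelial genes had lower values in more anxious mice too. Their summed level was 117 to 145 CPM in more anxious and 162 to 214 CPM in less anxious mice. The fitted log2 fold change was negative for 7 of 7 genes (median -0.36), beside 13346 of all 26963. At an unadjusted p under 0.05 there were 3 of 7, beside 8.84% of all genes. At an adjusted p there were 0 by edgeR and 1 by DESeq2, beside 0.0445% and 0.878%. The part of endothelial genes in the values of Clic6 and F5 was not tested. Of the meninges and stroma genes 11 of 12 were negative (median -0.32), and 0 of 12 had an unadjusted p under 0.05. Their summed levels were 104 to 274 CPM in more anxious and 158 to 293 CPM in less anxious mice. Genes within each list varied together (median r of 0.590 and 0.741), so their signs are not separate observations. Further lists went either way. Positive estimates numbered 4 of 5 for hypothalamic genes (median 1.31) and 3 of 5 for blood genes (0.08). They numbered 3 of 7 for anterior pituitary genes (-0.15) and 4 of 12 for amygdala and neuron genes (-0.16). Of these lists only the neuron genes had any at an unadjusted p under 0.05 by edgeR, 2 higher and 1 lower of 12.

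The other 8 genes had intervals that crossed 0. Ttr had a log2 fold change of -0.41 (interval -1.72 to 0.90), Kl -0.33 (-0.78 to 0.12), Folr1 0.81 (-0.76 to 2.37) and Sostdc1 0.02 (-0.38 to 0.43). The interval of Sostdc1 was the narrowest and that of Otx2, -2.49 to 1.72 around -0.39, the widest. Aqp1 had -0.08 (-0.94 to 0.79), Slc4a5 0.09 (-1.30 to 1.47) and Steap1 -0.55 (-2.20 to 1.10). Differences within such intervals were not detectable at this depth and number of mice. Over the 10 genes 3 estimates were positive and 7 negative, with a median of -0.36, where the median over all genes tested was 0.0036. In no gene did the CPM of less and more anxious mice fail to overlap (0 of 10), beside 8.86% of all genes, 4.86% with the more anxious mice lower.

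Anxious mice, compared with less anxious mice, gave 0 of 10 genes at an adjusted p (edgeR, 0.00371% of all genes). At an unadjusted p under 0.05 there were 2 of 10, beside 4.74% of all genes. They were Kl, with a log2 fold change of -0.50 (edgeR, adjusted p = 0.987), and Clic6 with -0.71 (edgeR, adjusted p = 0.987). Both comparisons share the less anxious mice, among them mouse 12, which had the highest Kl and Clic6. More anxious against anxious mice gave 0 of 10 at an adjusted p, where edgeR called 0% of all genes, and 0 of 10 at an unadjusted p beside 4.57%. DESeq2 called 0 of 10 in both of these comparisons, beside 0.029% and 0.139% of all genes. At an unadjusted p under 0.05 it had 2 of 10 for anxious against less anxious mice, beside 3.46%, and 0 of 10 for more anxious against anxious mice, beside 3.26%.

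**Figure D4:**
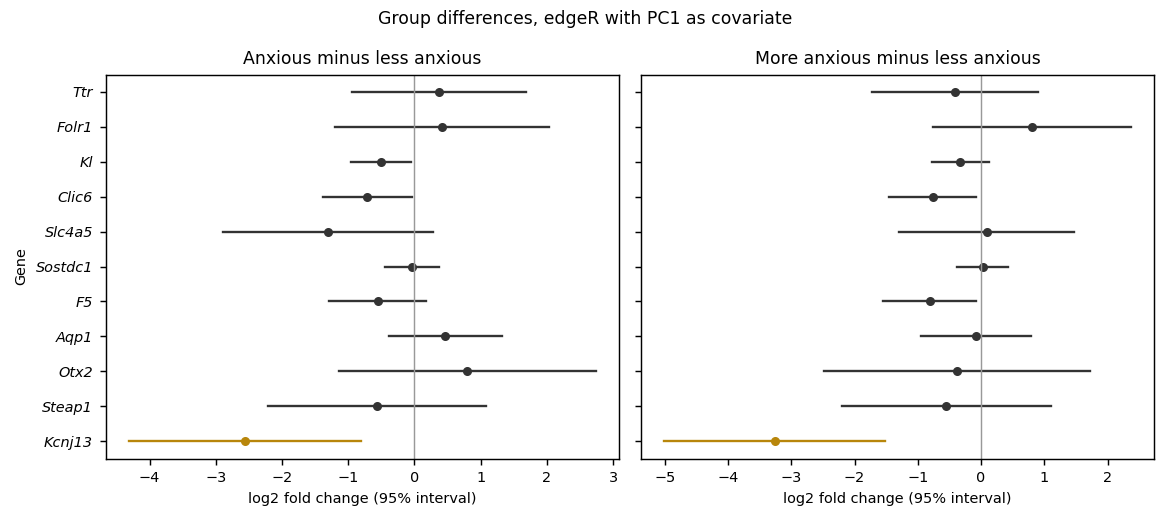
Log2 fold change with 95% interval from edgeR for the 10 genes and Kcnj13, anxious minus less anxious (left) and more minus less anxious (right), with a line at 0. Among the 10 genes the intervals of Kl and Clic6 (left) and of Clic6 and F5 (right) lie below 0 before adjustment, and Kcnj13, at -3.26 on the right, lies lowest.

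Kcnj13 is a potassium channel gene of the same epithelium that the study drew from these libraries by this grouping. It is given beside the genes above as a gene whose level separated the outer groups. It averaged 4.25 ± 1.06 CPM in less anxious mice (SD, n = 3), 0.785 ± 0.596 in anxious and 0.453 ± 0.487 in more anxious mice (SD, n = 4 each), with no overlap between the outer groups. Of the 32 further choroid plexus genes 5, Kcnj13 among them, had no such overlap, beside 8.86% of all genes in either direction. The log2 fold change of Kcnj13, -3.26, had an adjusted p of 0.260 by edgeR and 0.000832 by DESeq2. Over 12 mice the r with Kcnj13 was 0.577 for Kl, 0.380 for Slc4a5 and 0.277 for Clic6, and it was 0.0520 for Ttr and -0.313 for Aqp1. Kcnj13 lies within Gigyf2, which is on the other strand.

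The 32 further choroid plexus genes, Kcnj13 among them, had 13 positive and 19 negative estimates between more and less anxious mice (median -0.13). At an unadjusted p under 0.05 there were 3 of 32, 2 higher and 1 lower, beside 8.84% of all genes, and at an adjusted p 0 of 32 by edgeR and 1 of 32, Kcnj13, by DESeq2. Among those of at least 1 CPM, the 3 most negative estimates were those of Kcnj13, of Prlr, the prolactin receptor (-0.61), and of Lbp, which encodes a lipopolysaccharide binding protein (-0.58). The 3 most positive were 0.52 for Cdkn1c, a cell cycle inhibitor, 0.27 for Col9a3 and 0.23 for Spint2. None of these passed adjustment by edgeR. The 11 genes of ion pumps and transporters that drive fluid secretion, led by Atp1b1 at 1657 CPM, which neurons also use, had 0 of 11 at an unadjusted p (median -0.04). The 14 ependymal genes, led by Rsph4a at 8.16 CPM, had 0 of 14 (median -0.22).

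Behavior was recorded apart from the RNA, and its 7 measures were fitted without the groups. The authors, however, chose PC2 for the grouping because it correlated with the maze and light/dark measures of these mice. Fits on those measures therefore do not stand apart from the group comparison. The measures were fitted one at a time in the 11 mice with a group, with 10 mice for the social ratio of the first 3 min. At an adjusted p none of the 10 genes was called on any of the 7 measures (0 of 70 fits by edgeR, and 0 by DESeq2). Of all genes edgeR called 0% on open-arm time, total entries and distance in light, 0.00742% on time in light, and 0.015%, 0.0111% and 0.0223% on the box:zone ratios over 3, 5 and 10 min. DESeq2 called 0.119%, 0.107%, 0.0753% and 0.0145% of all genes on the 4 maze and light/dark measures in that order, and 0.479%, 0.119% and 0.325% on the 3 ratios. Of the 70 fits 5 had an unadjusted p under 0.05 by edgeR, beside 3.55% to 8.05% of all genes depending on the measure. The fits reuse the same mice and are not separate observations.

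With the share of time in the open arms there were 2 of 10, beside 5.84% of all genes. Ttr was higher by 0.52 on the log2 scale per SD of open-arm time (SD of 9.49 percentage points, interval 0.06 to 0.97, edgeR, adjusted p = 0.791). Clic6 was higher by 0.28 (interval 0.01 to 0.55, edgeR, adjusted p = 0.829). Of the 3 mice with high Ttr, mouse 6 spent 29.2% of its time there, mouse 7 24.5% and mouse 11 20.1%, while mouse 12, with 24.6%, had the lowest Ttr of all. Mouse 6 is in the more anxious group although its open-arm time was the longest of the 12 mice.

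With total entries, Folr1 had a slope of -0.67 per SD (edgeR, adjusted p = 0.606), beside 6.97% of all genes at an unadjusted p. Mouse 2 made the fewest entries, 6, and had the highest Folr1, while mouse 12 made 42 and had 3 reads of it. The box:zone ratio sets time right beside a stranger mouse (box) against time at a distance in its chamber (zone). With this ratio over the first 3 min, Ttr had a slope of -0.55 (edgeR, adjusted p = 0.600) and Kl -0.21 (edgeR, adjusted p = 0.613), beside 7.65% of all genes. At 5 and 10 min the slopes of Ttr were -0.28 and -0.24, and both intervals crossed 0. None of the 10 genes had an unadjusted p under 0.05 with these later ratios (6.56% and 8.05% of all genes), with distance in light (5.8%) or with time in light (3.55%).

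**Figure D5:**
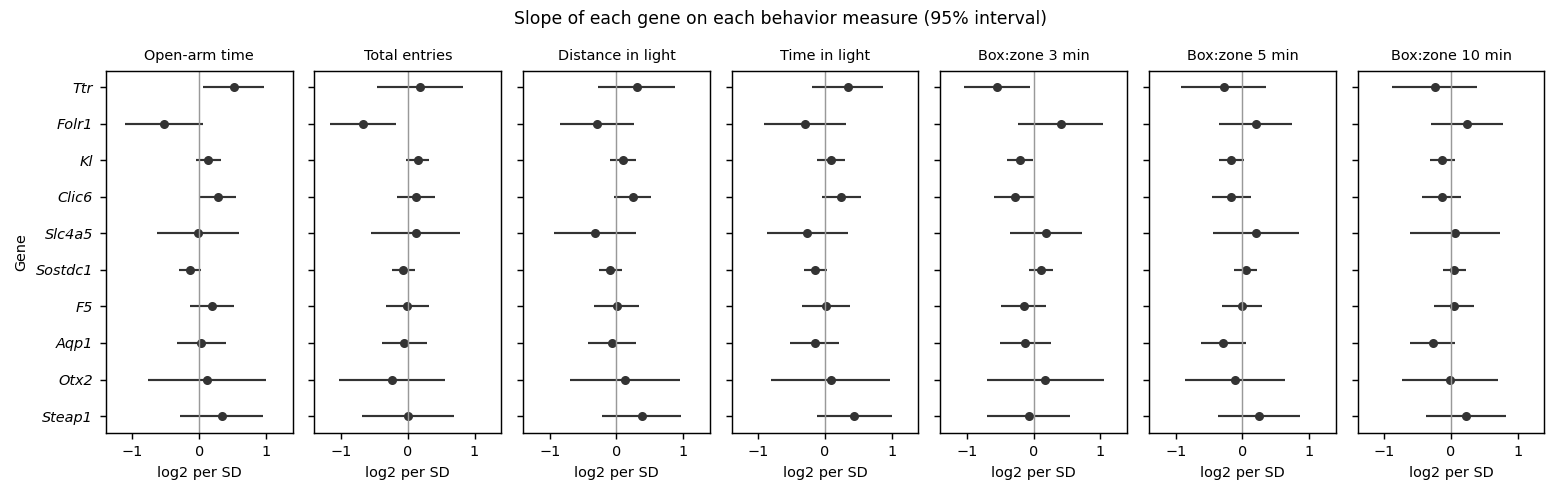
Slope of each of the 10 genes on each of 7 behavior measures (log2 per SD of the measure) with its 95% interval from edgeR, one panel per measure, with a line at 0. The intervals that leave out 0 are those of Ttr and Clic6 (open-arm time), Folr1 (total entries), and Ttr and Kl (box:zone ratio of the first 3 min), all before adjustment.

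Several of the genes share ground with others in the annotation. Folr1 overlaps Anapc15 and Otx2 overlaps Otx2os1, both on the other strand, and Otx2 also overlaps Gm49154 on its own strand. Clic6 overlaps 2410124H12Rik on the same strand, and F5 holds the pseudogene Gm16588 and overlaps Gm16548. Whether the counting used the strand is not given in the sources used here, so the reads of these genes may include reads of their partners. Ttr, Kl, Sostdc1, Aqp1, Slc4a5 and Steap1 overlap no other annotated gene.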

How the data were processed

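RNA from both amygdalae of each of 12 mice was sequenced with single-end 75 bp reads after stranded mRNA library preparation. Per the methods and labels, the authors trimmed reads, checked alignments to mm10 with STAR, estimated abundance with Salmon, which divides reads shared between transcripts, and deposited the estimated counts per gene with no normalization. All values were whole (0 were not). Versions and annotation release are not given in the sources used here. GENCODE M21 named 47224 of 47729 genes.

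Levels are CPM of the deposited total. Correlations used log2 CPM with a prior count of 2. Groups were compared in 11 mice with edgeR 4.0.16 (R 4.3.3): quasi-likelihood test, robust, TMM factors, PC1 as a covariate, genes with at least 10 reads in total, Benjamini-Hochberg adjustment over all genes. Behavior was fitted without covariate, per SD. DESeq2 1.42.0 was the alternative. The code was tested on simulated data. With 1 library per mouse, p-values measure the spread between these mice. The genes and lists were chosen with earlier results of these data known. The text names all 10 genes, of the further choroid plexus genes Kcnj13 and the 3 largest rises and 3 largest falls (Kcnj13 counted among them) at a mean of at least 1 CPM, the 1 or 2 most abundant genes of some other lists, and the 10 genes most like the 10 members. Of 33 further choroid plexus genes listed, 32 were found, and 2900040C04Rik was not analysed here.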

Additional observations from a re-analysis of the deposited data

Results flagged for a closer look

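Ttr in mouse 6 was 4.45 CPM, while the other 3 more anxious mice had 1.26 to 1.48 CPM, and by Dixon's criterion for groups of 4 this value stood apart from its group. It was 1 of 20 groups of 4 examined over the 10 genes, and chance alone marks about 1 in 20. Mouse 6 also had the longest open-arm time.

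Mouse 5, which the authors left out as an outlier, carries no group and entered no group comparison. Its F5 level of 1.38 CPM and its Aqp1 level of 1.04 CPM were above those of all 11 other mice, while Folr1, Slc4a5 and Otx2 had 0 reads there. The differences of mouse 5 from the others were not tested.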

How the results depend on the processing

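The count of choroid plexus genes past the threshold stayed at 0 under 17 alternatives in each of the 4 group comparisons and under 5 alternatives of the behavior fits. Ttr's highest value exceeded its lowest 5.26-fold to 5.45-fold. The median r over pairs, 0.0924, has no replicate error of its own, and it became 0.0350 by Spearman's rho, 0.0943 with a prior count of 0.5, 0.0784 without mouse 5, 0.0475 without mice 7 and 11, 0.0695 with TMM factors and 0.0344 over the 4 genes of at least 1 CPM. In the 17 alternatives of the group fit, Kl, Clic6, F5 and Folr1 kept the sign of their fold change between more and less anxious mice. Clic6 ran from -1.08 to -0.51 and F5 from -1.13 to -0.63, but Kl ran from -0.53 to -0.05 (without mouse 12) and Folr1 from 0.08 (without mouse 2) to 1.74, with no adjusted p below 0.244 for any of the 10 genes. Ttr (2 alternatives), Slc4a5 (3), Sostdc1 (5), Aqp1 (2), Otx2 (1) and Steap1 (2) changed sign in some. Ttr ran from -0.83 to 0.62 when 1 mouse was left out.

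The number of calls over all genes did depend on the tool and filter: 2 by edgeR and 184 by DESeq2 across the 3 groups, with 0 to 9 over the other edgeR settings, and 12 and 303 between more and less anxious mice, with 0 to 25 over the other edgeR settings (0 without mouse 3, 24 without mouse 6). Between anxious and less anxious mice edgeR called 1 and DESeq2 10, and between more anxious and anxious mice 0 and 48. The cause was not tested. No paired analysis was possible because each mouse has a number of its own and no label ties mice across groups. The correlation over the 4 genes of at least 1 CPM, and the group fit without mice 6 and 7, were chosen after seeing the data. Depth limits Folr1, Steap1, Slc4a5 and Otx2, at 56 to 114 reads over 12 mice.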
